A study of Solanum lycopersicum with 12 samples.

Results

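The genes described here are 7 tomato loci of salicylic acid (SA) synthesis, turnover and signalling, out of 34688 loci in the expression table. They were chosen by locus identifier and comprise ICS (Solyc06g071030.3), NPR1 (Solyc07g040690.3), EDS1 (Solyc06g071280.4), PAD4 (Solyc02g032850.3), SAMT (Solyc09g091550.3), DMR6-1 (Solyc03g080190.3) and DMR6-2 (Solyc06g073080.4). The table gives no gene names, so the names are those of the list that defined the set. RefSeq's gene table for assembly SLM_r2.1 carries 4 of the 7 symbols (NPR1, EDS1, SAMT and DMR6-1), each on the chromosome that the locus identifier gives, and holds none of these identifiers. By identifier, 3 of the 7 loci lie on chromosome 6 (ICS, EDS1 and DMR6-2) and the others on chromosomes 7, 2, 9 and 3.

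Salicylic acid is a plant hormone of defence against pathogens that feed on living tissue. Plants make it from chorismate, through isochorismate or through phenylalanine and cinnamate, and its level is also set by enzymes that methylate or hydroxylate it. EDS1 and PAD4 act before SA accumulates, and NPR1 binds SA and passes the signal to the transcription of defence genes.

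Tomato seedlings of cv. Moneymaker received leaf sprays of 300 µM piperonylic acid (PA) with 0.1% Tween 20, or of a mock solution. Both were given on days 7 and 14 after transplantation, and no Tween 20 content is recorded for the mock. If the mock lacked it, an effect of PA cannot be told apart from one of Tween 20. A PA effect below is therefore a difference between the sprays as given. PA is an inhibitor of cinnamate 4-hydroxylase, the enzyme that takes cinnamate on toward lignin and flavonoids. Plants were harvested on day 15, and messenger RNA was sequenced from its 3′ end. There were 3 samples in each of 4 groups, PA shoot, mock shoot, PA root and mock root, and each sample pooled 4 plants, so a change within 1 cell type cannot be told apart from a change in the make-up of the organ.

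The 12 libraries held 4214169 to 7386030 reads. Loci at least 64-fold higher in mock roots than in mock shoots, and averaging 500 normalized counts or more there, took 5.07 to 5.32% of reads in PA roots and 4.70 to 5.31% in mock roots. The same loci took 0.0168 to 0.0233% of reads in PA shoots and 0.0134 to 0.0158% in mock shoots. Loci defined likewise for shoots took 18.8 to 19.0% in PA shoots, 20.2 to 21.5% in mock shoots, 0.11 to 0.203% in PA roots and 0.107 to 0.140% in mock roots. Both sets were chosen on the mock libraries, which favours low values of each set in the other organ of mock plants, and high values in its own. Mock shoot replicate 1 stood apart from the other shoot libraries on the first principal component, at 51.1 against -22.4 to 3.61.

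The first comparison set PA-sprayed shoots against mock-sprayed shoots. SAMT, DMR6-1 and DMR6-2 all rose in PA shoots. DMR6-2 rose most, to 56.1 ± 16.2 normalized counts in PA shoots against 5.95 ± 3.31 in mock shoots, a ratio of 9.43 (SD, n = 3 each). DMR6-1 rose 1.80-fold and SAMT 1.53-fold. NPR1, EDS1 and PAD4 did not pass the test, and ICS had too few reads to enter it. The test was limma on log2(normalized counts + 1), with Benjamini-Hochberg adjustment over all 14505 loci that averaged at least 10 normalized counts, and a change was called at an adjusted p below 0.05. It called 3 of the 6 members tested, all higher, against 1.58% of all tested loci, or 0.924% for higher calls alone. The median log2 fold change was 0.51 over the 6 members and -0.02 over all tested loci. DMR6-2, among the 3, entered the test only through its PA samples, which favours a call. With a minimum of 50, which left DMR6-2 out, limma called 2 of 5 members and 231 of 10384 loci. The median of those 5 members was 0.43. With no minimum it called 3 of 7 members and 296 of 21984 loci. The set was chosen with earlier results of these data known, so these shares are a description.

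DMR6-1 and DMR6-2 encode related dioxygenases; the DMR6 enzyme of Arabidopsis hydroxylates salicylic acid and lowers its level. DMR6-2 stood at 38.0, 69.2 and 61.1 normalized counts in the PA shoot samples, against 5.73, 2.76 and 9.37 in the mock shoot samples. Every PA sample lay above every mock sample, with a wide gap between the groups. These values rest on 154 reads over the 3 PA libraries and 14 over the 3 mock libraries, and the ratio of pooled reads, scaled for library size, was 10.5 with a 95% exact binomial counting interval of 6.09 to 19.7. The interval covers counting error only. The log2 fold change was 3.11 ± 0.41 (SE, limma adjusted p = 0.00249), the highest of the 14505 loci tested. DMR6-2 reached the minimum of 10 normalized counts through the PA samples alone, which favours a difference. With no minimum the limma adjusted p was 0.00091.

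DMR6-1 stood at 412, 396 and 459 normalized counts in PA shoots, against 219.9, 236 and 249.9 in mock shoots. The groups were again apart, and the spread within each was small, at 32.8 and 15.0 (SD, n = 3 each). The log2 fold change was 0.84 ± 0.11 (SE, limma adjusted p = 0.00293), rank 382 among the 14505 loci.

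The same values can be given as a balance of the pair, which restates their 2 fold changes. The log2 ratio of DMR6-1 to DMR6-2 was 3.40, 2.50 and 2.89 in the PA shoot samples, against 5.04, 5.98 and 4.60 in the mock shoot samples. It averaged 2.93 ± 0.45 in PA shoots and 5.20 ± 0.70 in mock shoots (SD, n = 3 each), a difference of -2.27, and the groups did not overlap. A two-sided exact permutation test gave p = 0.1, the smallest that 3 against 3 samples allow. The ratio is of 3′ read counts and is not corrected for length, and the sources used here do not say how reads shared by similar loci were counted. With a pseudocount of 5 the difference was -1.66. DMR6-2 rested on 3 to 6 reads per library in mock shoots.

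SAMT encodes the methyltransferase that turns salicylic acid into volatile methyl salicylate. It had 1178, 943 and 932 normalized counts in PA shoots, against 664, 644 and 690.4 in mock shoots. All 3 PA samples exceeded the mock samples, and PA replicate 1 was the highest. Groups that did not overlap, with PA higher, were thus found at these 3 members, and at 8.15% of all tested loci. The log2 fold change was 0.60 ± 0.11 (SE, limma adjusted p = 0.0165). The call was lost without PA shoot replicate 1 (limma adjusted p = 0.0962), PA shoot replicate 2 (0.0601) or mock shoot replicate 2 (0.0746), and with all 12 libraries in the fit (0.0702), while the log2 fold change stayed between 0.49 and 0.66 over all alternatives, whose adjusted p ran from 1.26e-05 to 0.0962.

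**Figure D1:**
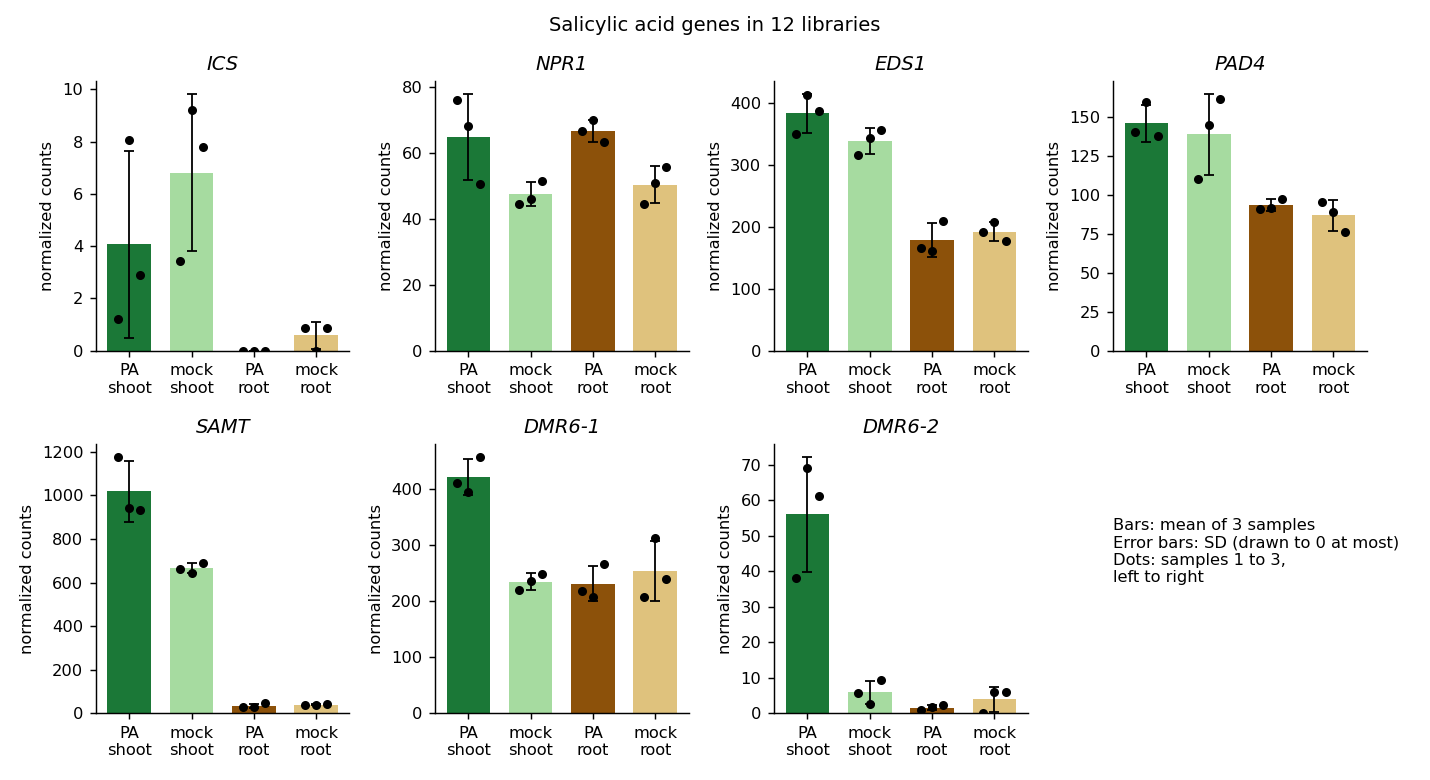
Normalized counts (linear axis from 0, a separate scale for each gene) of the 7 genes in PA shoot, mock shoot, PA root and mock root. Bars are means of 3 samples, error bars are SD and dots are samples; SAMT, DMR6-1 and DMR6-2 have all 3 PA shoot dots above all 3 mock shoot dots.

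Without mock shoot replicate 1, the shoot library that stood apart, the limma adjusted p was 0.000155 for DMR6-2, 0.00082 for DMR6-1 and 0.00636 for SAMT. The root-preferring loci took a slightly larger share of reads in PA shoots than in mock shoots, as given above, and the shoot-preferring loci a smaller one. The part of either in these calls was not tested. DMR6-2 reached no more than 6.10 normalized counts in any root library and SAMT no more than 45.7, and DMR6-1 reached 313.

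The genes NPR1, EDS1 and PAD4 did not pass the test in shoots. NPR1, the salicylic acid receptor and transcriptional coactivator, had 76.0, 68.1 and 50.4 normalized counts in PA shoots, against 44.7, 46.0 and 51.5 in mock shoots. PA replicate 3 fell inside the mock range, so the groups overlapped. The log2 fold change was 0.43 with a 95% interval of -0.02 to 0.88 (limma adjusted p = 0.381), which does not exclude a change of the size seen for SAMT.

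EDS1, a lipase-like protein that relays signals from immune receptors, had 349, 412 and 386 normalized counts in PA shoots, against 315, 343 and 356 in mock shoots. The ranges overlapped, and the log2 fold change of 0.18 had a 95% interval of -0.07 to 0.42 (limma adjusted p = 0.517). PAD4, its partner in a heterodimer, had 139.8, 159 and 138 normalized counts in PA shoots, against 109.9, 145 and 161 in mock shoots. The PA samples lay wholly within the mock range, and the log2 fold change of 0.09 had an interval of -0.26 to 0.43 (limma adjusted p = 0.863).

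ICS, isochorismate synthase, the first enzyme of the isochorismate route, was near the detection limit. It had 1.23, 8.08 and 2.91 normalized counts in PA shoots, from 1 to 7 reads, and 3.44, 9.21 and 7.81 in mock shoots, from 3 to 10 reads. The groups overlapped, and the ratio of pooled reads was 0.585 with a 95% exact binomial counting interval of 0.25 to 1.31. A two-sided exact permutation test gave p = 0.3, where 0.1 is the smallest that 3 against 3 samples allow.

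**Figure D2:**
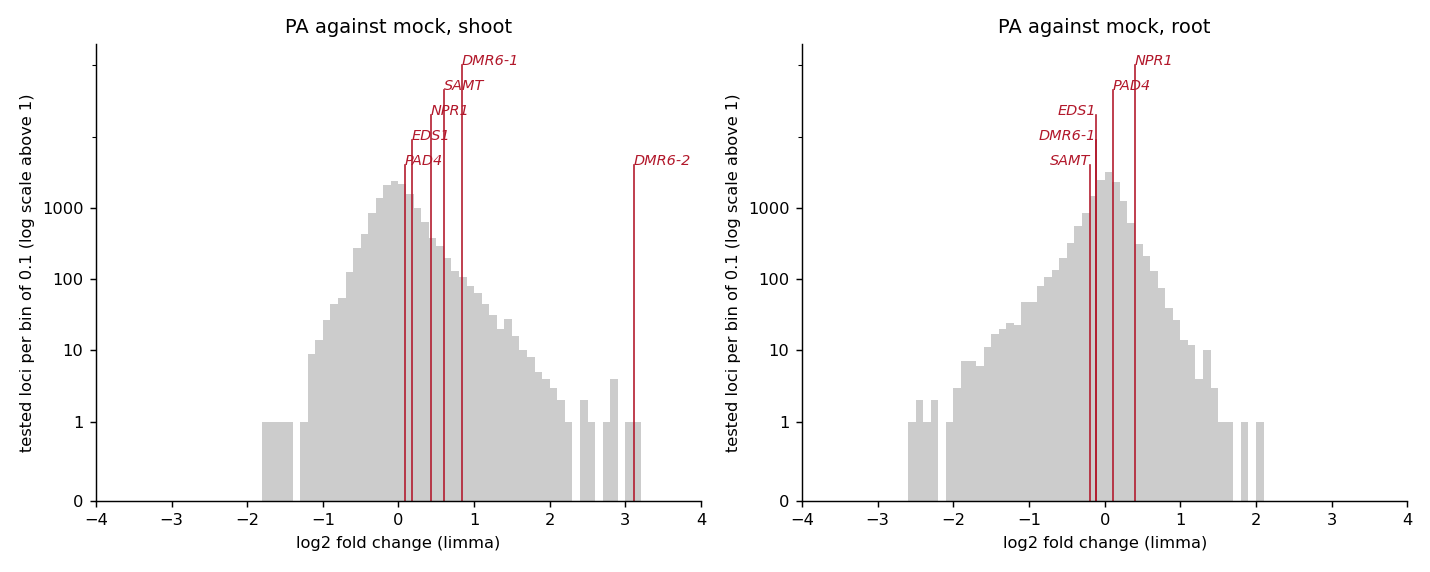
Histograms of the limma log2 fold change of all tested loci, PA against mock, in shoot (14505 loci) and root (14645 loci), on a vertical axis that is logarithmic above 1, with a red leader line at each tested member whose height has no meaning. In shoot DMR6-2 is at the right end, at 3.11, and in root all 5 tested members lie between -0.19 and 0.40.

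The second comparison asked whether the same leaf spray changed these genes in roots. No member passed. Of the 5 members tested in root, limma called 0, against 1.58% of the 14645 loci tested. The 1 member with an unadjusted limma p below 0.05, NPR1, was at rank 1323 by p among those loci. With edgeR and DESeq2 on whole reads 0 members were called as well. The median log2 fold change was -0.11 over the 5 members and 0.03 over all tested loci.

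NPR1 was the member with the lowest p in root. It had 66.6, 70.03 and 63.2 normalized counts in PA roots, against 44.6, 50.7 and 55.8 in mock roots. The groups did not overlap, which was also true, with PA higher, of 10.2% of all tested loci. Its log2 fold change was 0.40 (SE 0.16), with a 95% interval of 0.06 to 0.75 (limma adjusted p = 0.295, unadjusted p = 0.0266). That estimate was close to the 0.43 in shoots, and the difference between the tissues was -0.03 with an interval of -0.56 to 0.51.

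DMR6-1 had 219, 208 and 267 normalized counts in PA roots, against 208, 313 and 240.5 in mock roots. The ranges overlapped, with mock replicate 2 the highest, and the log2 fold change was -0.12 with a 95% interval of -0.45 to 0.21 (limma adjusted p = 0.826). SAMT had 30.7, 29.5 and 45.7 normalized counts in PA roots, against 37.6, 39.8 and 41.8 in mock roots. For SAMT the PA range spanned the mock range, with a log2 fold change of -0.19 and an interval of -0.65 to 0.27 (limma adjusted p = 0.792).

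EDS1 had 165, 161 and 209 normalized counts in PA roots, against 192, 207 and 177 in mock roots, a log2 fold change of -0.11 with an interval of -0.39 to 0.17 (limma adjusted p = 0.805). PAD4 had 90.5, 91.2 and 97.5 normalized counts in PA roots, against 95.4, 88.8 and 75.8 in mock roots, a log2 fold change of 0.11 with an interval of -0.20 to 0.41 (limma adjusted p = 0.827). For each gene the ranges of the groups overlapped.

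DMR6-2 and ICS averaged under 10 normalized counts in root and were not tested there. DMR6-2 had 0.854, 1.84 and 2.28 normalized counts in PA roots, from 6 reads in all, and 0, 5.92 and 6.10 in mock roots, from 14 reads. The ratio of pooled reads was 0.417 with a 95% exact binomial counting interval of 0.131 to 1.16, and the exact permutation test gave p = 0.6. ICS had 0 reads in each PA root library, which allows up to 3 reads or 2.28 to 2.76 normalized counts per library, and 1, 0 and 1 reads in the mock root libraries.

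**Figure D3:**
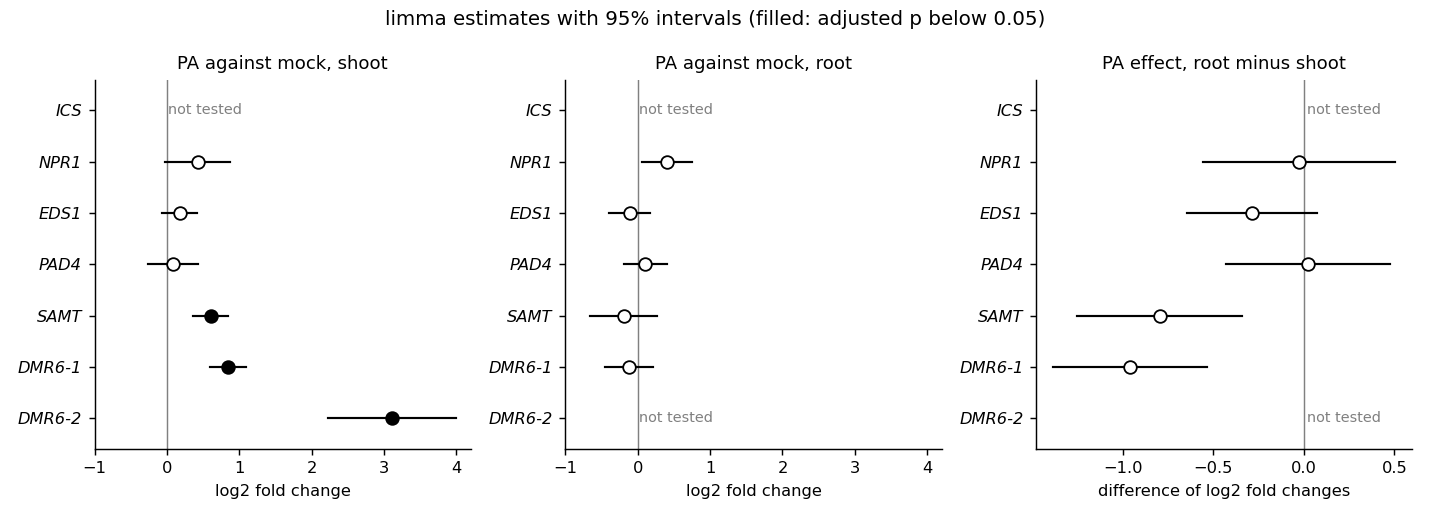
Estimates from limma (dots) with 95% intervals (lines) for PA against mock in shoot, in root, and for the root effect minus the shoot effect, on the log2 scale; filled dots have an adjusted p below 0.05. The filled dots are SAMT, DMR6-1 and DMR6-2 in shoot; in the difference between tissues the intervals of SAMT and DMR6-1 lie below 0 but their adjusted p values are above the threshold.

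A call in shoots and none in roots does not show that the tissues differ, so the difference between the PA effects was tested over all 12 libraries. Among the 5 members tested, limma called 0, against 0.377% of 13010 loci. The 2 with an unadjusted limma p below 0.05, DMR6-1 and SAMT, were at ranks 55 and 199 by p among those loci. The root effect minus the shoot effect was -0.96 ± 0.20 for DMR6-1 (SE, limma adjusted p = 0.0519). It was -0.80 ± 0.21 for SAMT (SE, limma adjusted p = 0.134). The difference for EDS1 was -0.29 with a 95% interval of -0.65 to 0.07, and for PAD4 it was 0.02 with an interval of -0.43 to 0.47.

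DMR6-1 lay at the threshold. Its adjusted p was 0.0303 with edgeR, 0.00323 with DESeq2 and 0.035 with limma and the replicate number as a block, and over all 23 alternatives it ran from 0.00323 to 0.149, with 12 below 0.05. Among the 12 were edgeR and DESeq2 without a minimum (adjusted p = 0.0183 and 0.0048), which were added after the data had been seen. Without PA root replicate 3 the limma adjusted p was 0.0163 for DMR6-1 and 0.0106 for SAMT. For DMR6-1 it was 0.0305 without mock root replicate 1 and 0.0486 without mock shoot replicate 3. Leaving out any other library gave 0.0871 to 0.149 for DMR6-1, above the threshold. Any library but PA root replicate 3 gave 0.127 to 0.306 for SAMT. DMR6-2 could not enter this fit because of its low root counts. With no minimum, limma gave a root effect minus shoot effect of -3.62 ± 0.90 (SE, adjusted p = 0.132), and the choice of tool decided the call: DESeq2 gave -4.60 (adjusted p = 0.00114) and edgeR -4.56 (adjusted p = 0.0289), where they called 0.802% and 0.421% of 20445 loci. The last 2 fits were added after the data had been seen.

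The third comparison set roots against shoots, first under PA and then under mock, and gives each gene's organ preference. In PA-sprayed plants 5 of the 6 members tested were lower in root, against 68.9% of 15352 loci called in either direction and 33.7% called lower in root. DMR6-2, among these, reached the minimum only through the shoot samples and so had to differ. In mock-sprayed plants 3 of the 5 members tested were lower in root, against 66.1% of 15317 loci called in either direction and 32.5% called lower. No member was called higher in root, against 5402 of the 15352 loci under PA and 5147 of the 15317 under mock. These comparisons use separate libraries.

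SAMT had the strongest organ preference among the members tested under mock. Its mean was 35.3 ± 9.01 normalized counts in PA roots and 1018 ± 139 in PA shoots, a log2 difference of -4.83 ± 0.17 (SE, limma adjusted p = 4.59e-09). It was 39.7 ± 2.10 in mock roots and 666 ± 23.4 in mock shoots (SD, n = 3 each), a log2 difference of -4.03 ± 0.11 (SE, limma adjusted p = 2.84e-09). The order of the levels was PA shoot, mock shoot, and then both root groups, which overlapped.

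EDS1 and PAD4 were lower in root under both sprays. EDS1 averaged 178.5 ± 26.8 normalized counts in PA roots and 382.5 ± 31.4 in PA shoots, and 192 ± 15.2 in mock roots and 338 ± 21.1 in mock shoots (SD, n = 3 each). The log2 differences, root minus shoot, were -1.10 under PA (limma adjusted p = 2.26e-05) and -0.82 under mock (limma adjusted p = 0.0001). PAD4 averaged 93.07 ± 3.82 in PA roots and 146 ± 11.9 in PA shoots, and 86.7 ± 9.95 in mock roots and 138.5 ± 26.0 in mock shoots. Its log2 differences were -0.64 under PA (limma adjusted p = 0.00121) and -0.66 under mock (limma adjusted p = 0.00825).

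NPR1 showed no organ preference that the test could detect. It averaged 66.6 ± 3.42 normalized counts in PA roots and 64.8 ± 13.1 in PA shoots, and 50.4 ± 5.58 in mock roots and 47.4 ± 3.64 in mock shoots (SD, n = 3 each). The log2 differences were 0.06 under PA, with a 95% interval of -0.36 to 0.48, and 0.08 under mock, with an interval of -0.34 to 0.51 (limma adjusted p = 0.801 and 0.716).

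DMR6-1 was called lower in root only among PA-sprayed plants, and the test of that difference between sprays is the one given above for the PA effects (limma adjusted p = 0.0519). It averaged 232 ± 31.3 normalized counts in PA roots and 422 ± 32.8 in PA shoots, a log2 difference of -0.87 ± 0.12 (SE, limma adjusted p = 8.07e-05). It averaged 253.9 ± 53.6 in mock roots and 235 ± 15.0 in mock shoots (SD, n = 3 each), a log2 difference of 0.09 with an interval of -0.25 to 0.43 (limma adjusted p = 0.614). PA shoots thus stood above the 3 other groups, whose ranges overlapped.

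DMR6-2 was likewise highest in PA shoots. PA roots averaged 1.66 ± 0.73 normalized counts and PA shoots 56.1 ± 16.2 (SD, n = 3 each), a log2 difference of -4.42 ± 0.34 (SE, limma adjusted p = 1.05e-06). It reached the minimum mean of 10 through its PA shoot samples alone, which favours a difference. With no minimum the limma adjusted p was 2e-06. The ratio of pooled reads, root over shoot, was 0.0296 with a 95% exact binomial counting interval of 0.0107 to 0.066. In mock plants it rested on 14 reads in root and 14 in shoot, was not tested for want of counts, and gave a ratio of 0.748 with a counting interval of 0.331 to 1.69. The log2 ratio of DMR6-1 to DMR6-2 averaged 6.48 ± 0.36 in PA roots and 6.10 ± 1.41 in mock roots, a difference of 0.38 (SD, n = 3 each, exact permutation p = 0.7). DMR6-2 had 1 to 3 reads per PA root library and 0 to 7 per mock root library, so the added 1 weighs on these ratios. In mock root replicate 1, with 0 reads, the ratio was 7.71, and without that library the difference was 1.19.

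ICS reads came mostly from shoots. It had 0 reads in PA roots and 11 in PA shoots, and 2 in mock roots and 18 in mock shoots, each summed over 3 libraries. The lowest shoot library, PA shoot replicate 1, had 1 read, and so did mock root replicates 1 and 3. The mock ratio, root over shoot, was 0.0832 with a 95% exact binomial counting interval of 0.00936 to 0.347. With no minimum on the counts limma gave an adjusted p of 0.00462 under PA and 0.00277 under mock.

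**Figure D4:**
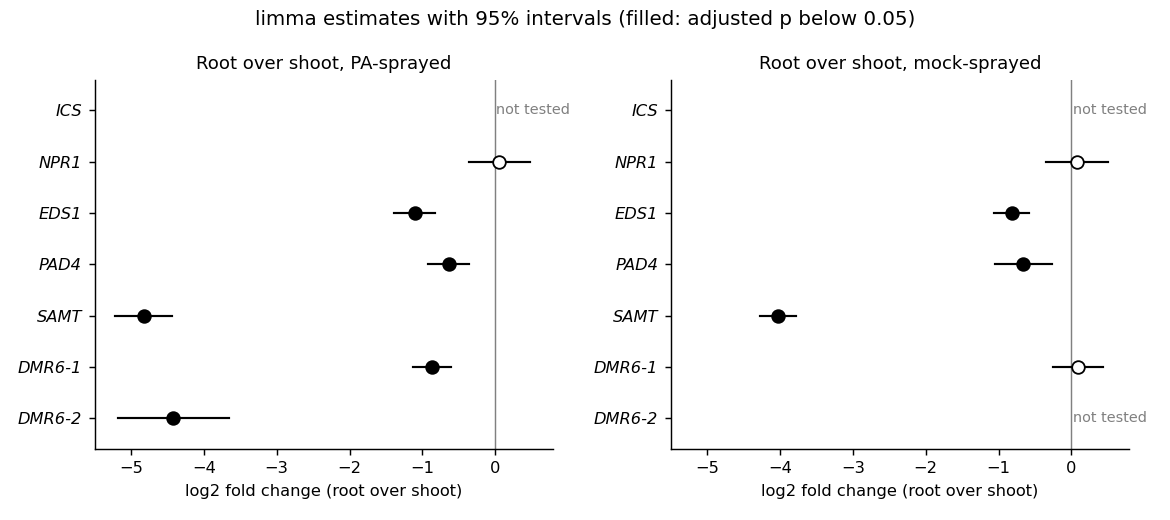
Log2 fold change of root over shoot from limma (dots) with 95% intervals (lines) in PA-sprayed and mock-sprayed plants; filled dots have an adjusted p below 0.05. DMR6-1 is at -0.87 under PA and 0.09 under mock, whereas SAMT, EDS1 and PAD4 are below 0 under both sprays.

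Likeness of pattern was scored as the root mean square difference of log2(normalized counts + 1) over the 12 libraries, after each locus was centred on its own mean. SAMT and DMR6-2 varied most over the libraries (SD 2.33 and 1.97 on the log2 scale). The locus closest to SAMT among 15336 was Solyc06g009050.3, at a difference of 0.195. It averaged 2008 normalized counts in PA shoots, 1281 in mock shoots, 77.2 in PA roots and 96.6 in mock roots. It was chosen for its likeness in these same libraries, so its difference between PA and mock shoots is a description, with no test.

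The locus closest to DMR6-2 was Solyc08g077330.3, at the much larger difference of 0.945. It averaged 86.3 normalized counts in PA shoots, 30.1 in mock shoots, 2.99 in PA roots and 3.71 in mock roots. For the other 6 members the difference from the closest scored locus was 0.107 to 0.485, with ICS the highest. DMR6-2 had 0 to 7 reads per library in mock roots, 1 to 3 in PA roots and 3 to 6 in mock shoots. ICS had at most 10 reads in any library. The part of counting error in the differences of DMR6-2 and ICS was not tested. Only loci that averaged at least 10 normalized counts over the 12 libraries were scored.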

How the data were processed

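The deposited file is 1 table of a normalized signal for 34688 loci, which the authors call normalized counts. The submitters' processing notes list DESeq2 (no version), STAR 2.6.1d, Trimmomatic 0.38 and FastQC 0.11.8. The sources used here name no read counter, genome build, annotation or strand setting. Each sample has a smallest step, taken as 1 read, and 100% of its values are multiples of that step within 0.01. Dividing by it gave whole reads, with size factors of 0.640 to 1.31. Groups and replicate numbers came from the sample titles. The labels describe pools of 4 plants and nothing further on independence, so the spread behind each p-value may be technical. Replicates differed by more than sampling noise (chi-square per degree of freedom 4.07 to 10.7).

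Groups were compared with limma 3.58.1 (R 4.3.3) and its trended prior, two-sided, on log2(value + 1), which understates changes of low loci. A locus entered if it averaged 10 normalized counts or more over the fitted libraries, or in each tissue for the difference of PA effects. Adjusted p values are over all loci tested. Whole reads were tested with edgeR 4.0.16 and DESeq2 1.42.0. Alternatives were pseudocounts of 0.5 and 5, no minimum or one of 50, quantile scaling, a replicate block, quality weights, 1 fit of all libraries, and each library left out. The scripts were tested on simulated counts. Figures used matplotlib 3.10.9.

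All 7 members are named whatever their values, and the closest locus is named for the 2 members that vary most. Members, lists and tests were chosen with earlier results of these data known. Other pathway genes were not analysed here, since no source used here pairs their identifiers with names.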

Additional observations from a re-analysis of the deposited data

Results flagged for a closer look

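DMR6-2 was singled out because edgeR without a minimum called a difference between its PA effects in root and shoot. That fit and the DESeq2 fit without a minimum were added after the data had been seen. The root effect minus the shoot effect was -4.56 on the log2 scale with edgeR on whole reads and no minimum on the counts (adjusted p = 0.0289). DESeq2 without a minimum gave -4.60 (adjusted p = 0.00114), and limma without a minimum gave -3.62 (adjusted p = 0.132). The root values rest on 6 reads in PA roots and 14 in mock roots. Groups of 3 samples are too small to test for a single outlying sample.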

How the results depend on the processing

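The shoot calls of DMR6-1 and DMR6-2 passed in all 18 and 17 alternatives that could be fitted (highest adjusted p 0.02 and 0.0424). SAMT passed in 14 of 18. DMR6-2 entered the fits that kept the main minimum only through its PA shoot samples, which favours a call. The minimum of 50 left DMR6-2 out, and with no minimum limma called it (adjusted p = 0.00091). The counts for all 3 genes include edgeR and DESeq2 without a minimum, which were added after the data had been seen. Members called in shoot numbered 2 to 3, and in root 0 in every alternative. Members called for the difference of PA effects, 0 with limma, were 0 to 2 when 1 library was left out, 2 with edgeR or DESeq2 without a minimum, and 1 with a pseudocount of 5, a minimum of 50, quantile scaling, edgeR, DESeq2, the replicate block or quality weights. The loci called over the whole table varied more. Leaving out 1 library gave 62 to 383 in shoot, 14 to 517 in root and 15 to 160 for the difference of effects. DESeq2 gave 356, 386 and 169, quality weights 370, 402 and 102, DESeq2 without a minimum 358, 381 and 164, and edgeR without a minimum 789, 606 and 86; edgeR with the minimum gave 75 for the difference. The cause was not tested. Under quantile scaling the median of all loci in root over shoot moved to 0.15 under mock and 0.16 under PA, with the same member calls.

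The replicate numbers were not taken as pairs, since correlations between deviations of same-numbered samples were low (-0.0527 to 0.102). Only that of PA root with mock root, replicate 1, was over 0.1. As a hint from the data and not the design, 17 of 24 best matches were to a sample's own number, with 3 candidates each time. The matches are not independent, since each of the 12 libraries entered more than 1 pairing of groups. They were 6 of 6 for mock root with mock shoot and 5 of 6 for PA shoot with mock shoot. For PA root they were 3 of 6 with mock root and 3 of 6 with PA shoot. With the replicate block 376 loci were called in shoot, 441 in root and 110 for the difference of effects. It changed 1 member call, DMR6-1 for the difference of effects (adjusted p = 0.035).

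Signs turned only for estimates that did not pass. NPR1's difference of effects was 0.00729 with quantile scaling, 0.0492 with quality weights and -0.19 to 0.10 with 1 library left out, and PAD4's was -0.00863 with edgeR and -0.10 to 0.18 with 1 library left out. Leaving out 1 library gave PAD4 -0.0697 to 0.20 in shoot, DMR6-1 -0.25 to 0.0413 in PA against mock roots and -0.0693 to 0.22 for mock root over shoot, and NPR1 -0.11 to 0.18 for PA root over shoot. The DMR6-1 to DMR6-2 log2 ratio, PA minus mock, was -1.66 in shoot with a pseudocount of 5, and -0.12 to 1.19 in root with 1 library left out. Each library held at most 10 reads of ICS, and of DMR6-2 in roots and mock shoots.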

Other observations

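Of the 70 loci lying within 5 positions on either side of one of the 7 members in the order of locus identifiers, 38 were tested in shoot, PA against mock. Around DMR6-2 the 6 neighbours tested had log2 fold changes of -0.52 to 0.49, around SAMT the 7 tested had -0.41 to 0.55, and around DMR6-1 the 5 tested had -0.04 to 0.49. The choice of neighbours followed a look at the data.

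The spread of ICS relative to its mean was wide in shoots, with a coefficient of variation of 87.7% in PA shoots and 44.2% in mock shoots, at 1 to 10 reads per library.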
